A study of Homo sapiens with 6 samples.

Results

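The cytoplasmic ribosomal protein genes encode the proteins of the ribosome that works in the cytosol. They were taken by symbol, as genes named RPL or RPS with a number, plus RPSA and the stalk genes RPLP0, RPLP1 and RPLP2, and the related gene RPS27L and pseudogenes were left out. A gene counted as measured when at least 1 probe set (a group of short DNA probes for 1 transcript) named it and no other gene, and its brightest probe set stood for it. By this rule 60 of the 18404 genes measured were ribosomal protein genes, 39 of the large subunit and 21 of the small subunit. The reference annotation names 80 such genes. Of the other 20, 11 (7 large, 4 small) were met only by probe sets that name several genes, and 9 (3 large, 6 small) were not analysed here. The 60 genes lie on 20 chromosomes.

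RNA came from H226, a human lung squamous carcinoma cell line that here carries a doxycycline-switched short hairpin RNA (shRNA) against p63, a relative of p53 that controls transcription in basal and squamous epithelia. Each of 3 groups has 2 samples, and each of the 6 samples was hybridised to its own Affymetrix HuGene 1.0 ST array. In the shp63 ON group the cells received 1 µg/mL doxycycline for 48 h, which switches the shRNA on. In the Nutlin-3 group the shRNA was off and the cells received 10 µM Nutlin-3, a small molecule that frees p53 from its inhibitor MDM2, for 12 h. In the control group the shRNA was off and the cells grew untreated. All 3 groups thus share 1 line that carries the shRNA, and all were plated 24 h before treatment in medium with 10% serum. Doxycycline was given only to the shp63 ON group, and for longer than Nutlin-3, so that the effect of the drug, the time and the shRNA cannot be told apart. The labels do not say whether the 2 arrays of a group came from separate cultures, so p-values measure only the spread between these arrays, which may be technical.

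Values are log2 probe set intensities, so that a difference of 1 is a doubling. Array medians over all probe sets ran from 6.57 to 6.70, and the 2 arrays of a group correlated across genes at r = 0.997 in shp63 ON, 0.997 with Nutlin-3 and 0.998 in control. The epithelial keratin KRT8 read 13.27 to 13.53 and the squamous keratin KRT5 11.87 to 12.39 over the 6 arrays, while the leukocyte gene PTPRC read 4.24 to 4.48 and the fibroblast gene DCN 3.94 to 4.05. SOX2, a factor of many squamous tumours, read only 5.69 to 5.79, and the mesothelial gene MSLN read 9.76 to 10.09. The gene targeted by the shRNA was not analysed here, so the knockdown was not checked. A gene passed when its limma p-value was under 0.05 after Benjamini-Hochberg adjustment, which covered all 18404 genes. With 2 arrays against 2, the smallest two-sided p of an exact permutation test is 0.333, and no single-gene permutation p is given. In bulk RNA, less RNA of a gene per cell and fewer cells that make it cannot be told apart.

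Each ribosome has a large subunit, which joins amino acids and threads the new chain through an exit tunnel, and a small subunit, which reads the messenger RNA. Cells make the ribosomal proteins in near equal numbers, since each ribosome takes 1 copy of most of them, and growing cells spend much of their transcription and translation on them. Their messenger RNAs belong to the TOP class, which begin with a C followed by a run of pyrimidines (C and T) and whose translation is governed by the growth kinase mTORC1. Free RPL5 and RPL11, bound to 5S ribosomal RNA, can bind MDM2, the protein that Nutlin-3 also binds.

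The starts of the genes show this pyrimidine run. RefSeq promoter sequences (GRCh38.p14) were matched for 49 of the 60 genes, and the 15 bases on each side of the annotated start were read. The 9 windows printed here belong to the genes with large changes in either direction or with a role described below, so that starts with and without the run can be compared. Capitals mark a run of at least 8 pyrimidines through the start. RPS24 lies at chr10:78033848-78033877 (+), RPL26 at chr17:8383179-8383208 (-), RPL29 at chr3:51995881-51995910 (-), RPS23 at chr5:82278340-82278369 (-) and RPS6 at chr9:19380222-19380251 (-). RPL10A lies at chr6:35468386-35468415 (+), RPL19 at chr17:39200268-39200297 (+), RPS28 at chr19:8321481-8321510 (+) and RPL10L at chr14:46651767-46651796 (-). Each is written 5′ to 3′ on the strand of its gene and covers the end of the promoter and the first bases of the 5′ untranslated region.
RPS24: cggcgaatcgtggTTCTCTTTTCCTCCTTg
RPL26: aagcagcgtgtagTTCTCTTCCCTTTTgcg
RPL29: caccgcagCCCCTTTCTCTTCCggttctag
RPS23: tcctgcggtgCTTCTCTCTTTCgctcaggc
RPS6: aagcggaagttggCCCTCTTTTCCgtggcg
RPL10A: tgcgcaagacatgctagtctcttttccggt
RPL19: tgggctctccccttcgcagataatgggagg
RPS28: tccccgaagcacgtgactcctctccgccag
RPL10L: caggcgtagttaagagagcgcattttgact

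With the shRNA on, most ribosomal protein genes of both subunits fell, each by a modest amount. Against control, 37 of the 60 genes passed as lower, 3 as higher and 20 did not pass (limma). That is 61.7% lower, where 16.5% of all genes tested passed as lower and 19.7% as higher. In either direction, 36.2% of all genes passed. The median log2 fold change of the 60 genes was -0.26, within a range of -0.73 to 0.36, and that of all genes was 0.04. In 53 of the 60 genes both shp63 ON arrays lay below both control arrays (88.3%, where 30.4% of all genes did), and in 3 both lay above (41.3% of all genes). Leaving out a control or a shp63 ON array lowered the number of calls among these genes and among all genes. In such a fit 1 group keeps a single array, which the fit assumes to vary like the other groups, so a call lost there says little about a single gene. The count of lower genes was 22 without control replicate 1, 16 without control replicate 2, 30 without shp63 ON replicate 1 and 21 without shp63 ON replicate 2, where 11.1%, 9.86%, 11.7% and 12.5% of all genes passed as lower. Without a Nutlin-3 array it was 37. In all 6 fits that left out 1 array, 15 of the 37 genes passed as lower each time: RPL10, RPL10A, RPL14, RPL23, RPL26, RPL27A, RPL29, RPL32, RPL37A, RPL7A, RPS13, RPS21, RPS23, RPS24 and RPS3A. The direction of the set did not rest on 1 array. Relative to the mean of the control arrays, the median of the 60 genes was -0.24 on shp63 ON replicate 1 and -0.30 on replicate 2, with 55 and 54 of the 60 genes below 0. Some markers of other cell types also differed in these arrays. In shp63 ON against control, 2 of 5 leukocyte markers (CD14 and CD68) and 2 of 7 fibroblast and endothelial markers (CDH5 and VWF) passed as higher. Of 7 mesothelial markers 2 passed as higher and 1 as lower, and of 12 squamous and epithelial markers 3 as higher and 4 as lower. The summed intensity of the 5 leukocyte markers was 1350 to 1370 in shp63 ON and 866 to 868 in control, and that of the 7 fibroblast and endothelial markers was 1060 to 1150 in shp63 ON and 876 to 902 in control. For the 7 mesothelial markers the sum was 2030 to 2090 in shp63 ON, 2540 to 2680 with Nutlin-3 and 2010 to 2070 in control. For the 12 squamous and epithelial markers it was 35300 to 36500 in shp63 ON, 38500 to 38900 with Nutlin-3 and 34800 to 35600 in control. PTPRC and DCN stayed dim. The part of these differences in the ribosomal protein values was not tested.

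**Figure D1:**
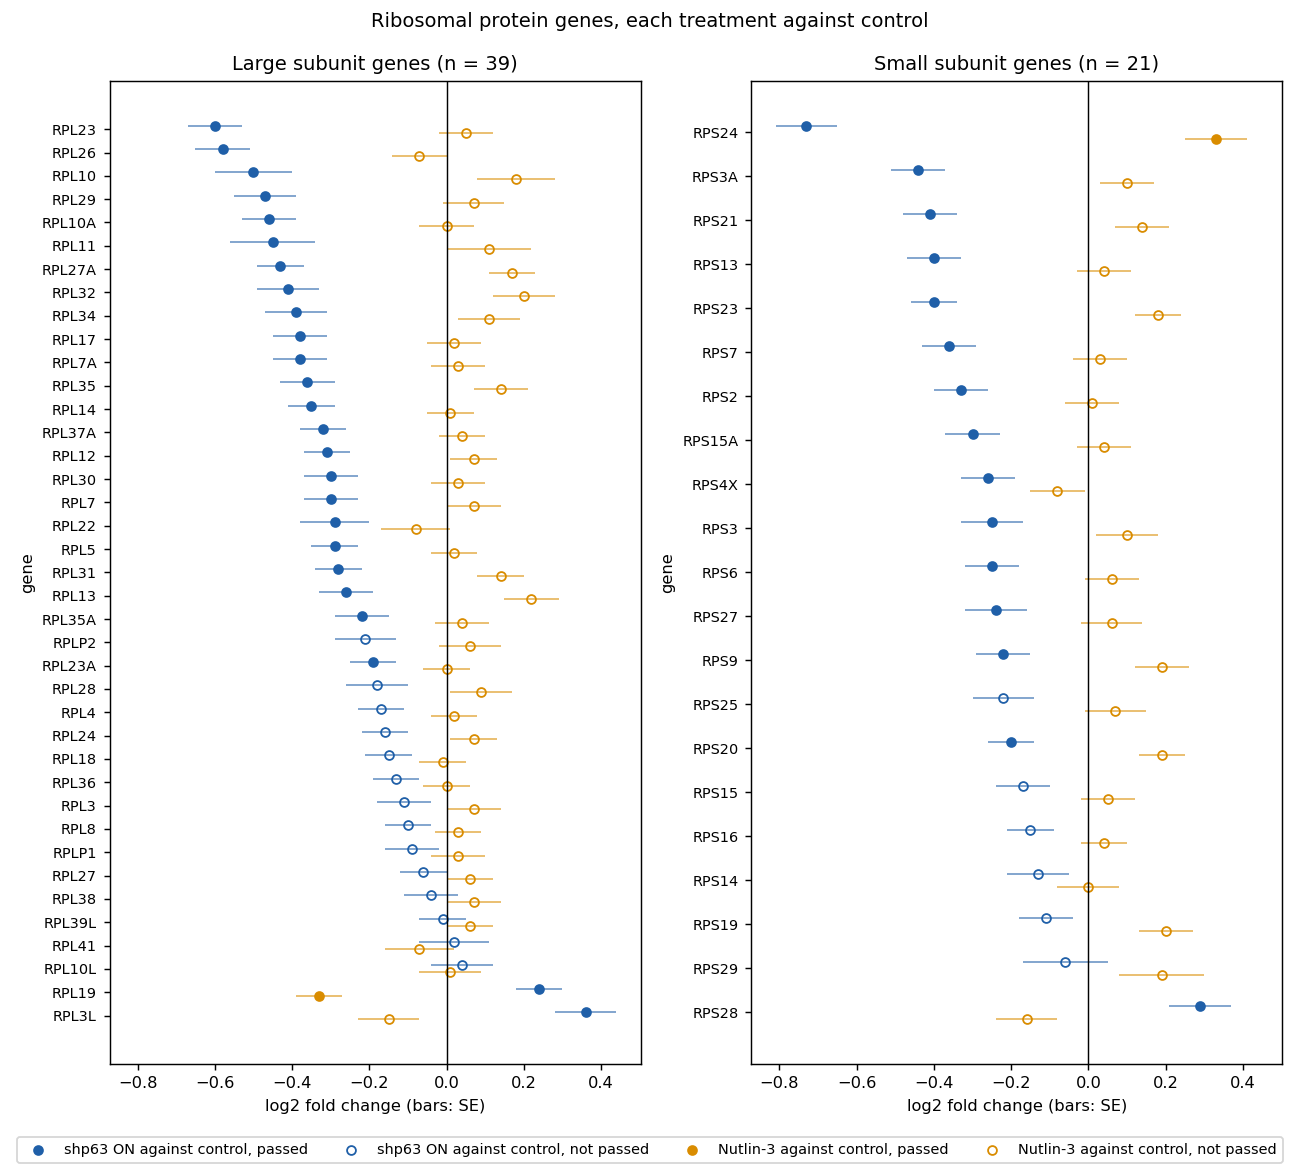
Log2 fold change of each of the 60 ribosomal protein genes (one row per gene) in shp63 ON against control and in Nutlin-3 against control, large subunit on the left and small subunit on the right. Points are limma estimates, bars are 1 SE, and filled points passed at an adjusted p under 0.05. The shp63 ON points lie mostly left of 0, from -0.73 for RPS24 to 0.36 for RPL3L, and the Nutlin-3 points lie between -0.33 and 0.33.

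Among small subunit genes, each by its brightest probe set, RPS24 fell most. RPS24, a protein needed to process the precursor of the small subunit RNA and mutated in some cases of Diamond-Blackfan anaemia, read 8.40 and 8.37 in shp63 ON, 9.53 and 9.35 with Nutlin-3, and 9.05 and 9.17 in control. The shp63 ON arrays were lowest and the Nutlin-3 arrays highest, with no overlap among the 3 groups. The shp63 ON change was -0.73 on the log2 scale (SE 0.08, limma adjusted p = 0.00066), a 1.66-fold fall. RPS3A, which sits beside the exit of the messenger RNA channel, read 10.84 and 10.78 in shp63 ON, against 11.20 and 11.29 in control. Its log2 fold change was -0.44 (SE 0.07, adjusted p = 0.00241). The second probe set of RPS3A read 8.16 and 8.30 in shp63 ON, against 8.91 and 9.18 in control. That change was larger than the one of RPS24 (-0.82, SE 0.13, adjusted p = 0.00405). The remaining probe sets of RPS3A changed by -0.26, -0.08 and -0.03, and only the first of these passed (adjusted p = 0.0396). RPS21, RPS13 and RPS23, proteins of the small subunit body and its decoding region, fell by 0.41, 0.40 and 0.40, and the shp63 ON and control arrays did not overlap in any of the 3. RPS7, which also binds MDM2 when free, fell by 0.36 and RPS2, at the messenger RNA entrance, by 0.33. Neither passed without control replicate 2 (adjusted p = 0.0511 for RPS7 and 0.0585 for RPS2).

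Among large subunit genes the leading falls were close in size. RPL23, a protein of the face that meets the small subunit and a binder of MDM2, read 8.19 and 8.12 in shp63 ON, 8.88 and 8.73 with Nutlin-3, and 8.74 and 8.75 in control. Its log2 fold change in shp63 ON was -0.60 (SE 0.07, limma adjusted p = 0.000956). RPL26, at the mouth of the exit tunnel, read 9.40 and 9.33 in shp63 ON, 9.88 and 9.88 with Nutlin-3, and 9.91 and 9.99 in control. It changed by -0.58 (SE 0.07, adjusted p = 0.000663), with the shp63 ON arrays lowest. RPL10, added last to the large subunit in the cytoplasm, read 9.74 and 9.44 in shp63 ON, against 10.08 and 10.10 in control, a change of -0.50 (SE 0.10, adjusted p = 0.00765). Its shp63 ON arrays lay 0.30 apart, farther than those of the other leading genes except RPL11. RPL29, a small protein of the outer surface, changed by -0.47 (SE 0.08) and RPL10A, the protein of the L1 stalk that helps the used transfer RNA leave, by -0.46 (SE 0.07). RPL27A and RPL32 fell by 0.43 and 0.41. Values here are for the brightest probe set, and RPL23A, named next, changed by more on its second (-0.31, SE 0.06, limma adjusted p = 0.0102). Genes of the large subunit close to the threshold were RPL23A, which passed at -0.19 (adjusted p = 0.0421) but in none of the 4 fits without a control or a shp63 ON array (0.117 to 0.167), and RPL4, a tunnel protein that did not pass at -0.17 (adjusted p = 0.0759).

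**Figure D2:**
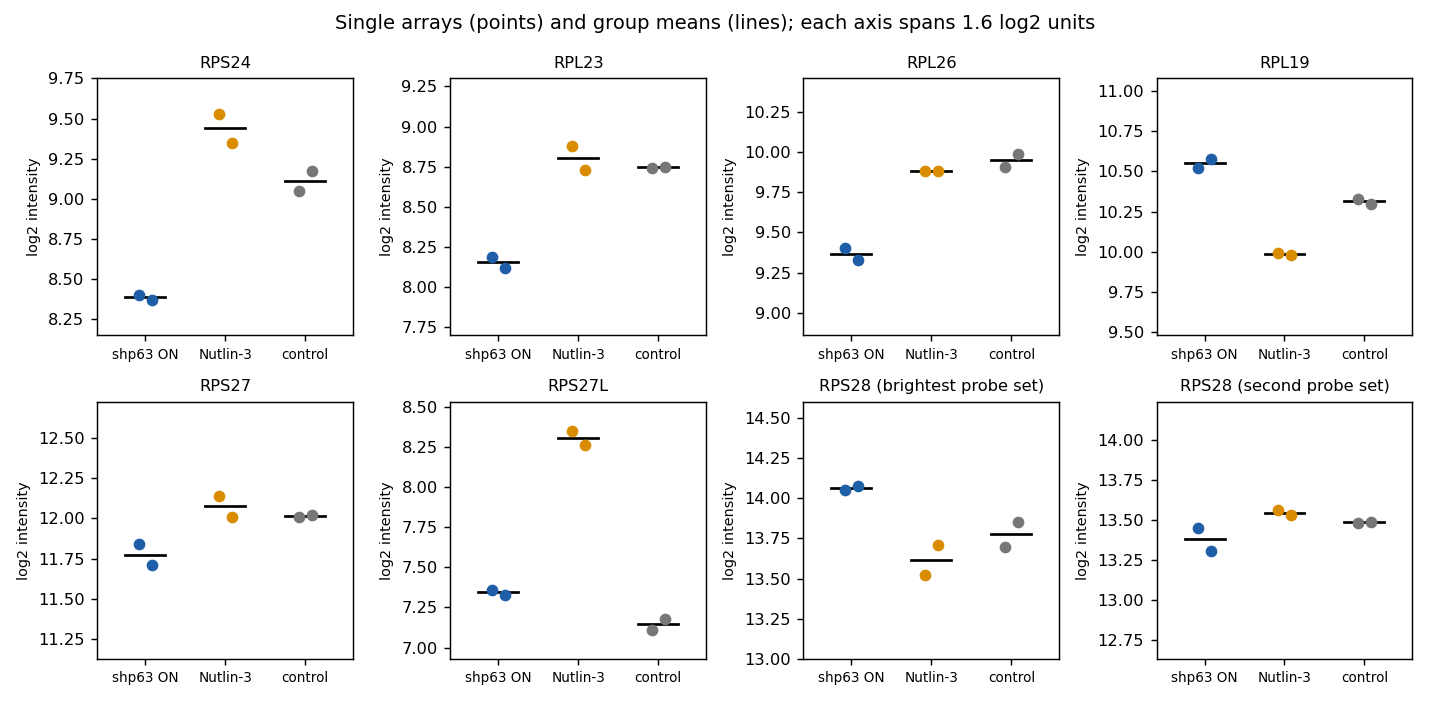
Log2 intensity on single arrays (points) and group means (lines) in shp63 ON, Nutlin-3 and control for 7 genes, with 2 probe sets of RPS28. In RPS24, RPL23 and RPL26 the shp63 ON arrays were lowest, in RPL19 they were highest, and RPS27L stood out in the Nutlin-3 arrays at 8.35 and 8.26. The vertical axes cover the same span but start at different values.

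By role, falls were found at several sites of the large subunit. The 5S particle genes both fell. RPL5 read 12.97 and 12.95 in shp63 ON, against 13.27 and 13.25 in control (-0.29, SE 0.06, limma adjusted p = 0.00829). The other probe sets of RPL5 changed by -0.53 and -0.43 (adjusted p = 0.00249 and 0.00648). RPL11 read 9.74 and 9.43 in shp63 ON, against 9.97 and 10.10 in control (-0.45, SE 0.11, adjusted p = 0.0191). RPL5 did not pass without control replicate 1 (adjusted p = 0.0512), and RPL11 did not pass without control replicate 1 (0.0525), without control replicate 2 (0.112) or without shp63 ON replicate 2 (0.0883). Of the 3 measured genes of the lateral stalk, which recruits translation factors, RPL12, its base, fell (-0.31, SE 0.06, adjusted p = 0.00827), but did not pass without control replicate 2 (0.0562). The stalk proteins RPLP2 and RPLP1 did not pass, at -0.21 (adjusted p = 0.0717) and -0.09 (adjusted p = 0.328), although RPLP2 passed without shp63 ON replicate 1 (0.0389). Of 8 measured genes of the exit tunnel and its mouth, 6 passed as lower and RPL19 as higher. Among the 60 ribosomal protein genes 61.7% passed as lower, and among all genes 16.5%. The lower count among these 8 was 4 without control replicate 1, 1 without control replicate 2, 4 without shp63 ON replicate 1 and 3 without shp63 ON replicate 2. Of 5 further measured genes of the large subunit listed together, RPL10 and RPL10A passed as lower and RPL3, RPL8 and RPL27 did not pass, at -0.11, -0.10 and -0.06. In all 5 both shp63 ON arrays lay below both control arrays, where 88.3% of the 60 ribosomal protein genes and 30.4% of all genes did.

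In the head of the small subunit, the domain next to the transfer RNAs, few genes passed as lower on their brightest probe set. Of the 8 measured genes of the head, 2 passed as lower (RPS3 and RPS20, where 16.5% of all genes did) and RPS28 as higher, while RPS15, RPS16, RPS19, RPS25 and RPS29 had values of -0.17, -0.15, -0.11, -0.22 and -0.06 and did not pass. Neither RPS3 (-0.25) nor RPS20 (-0.20) passed in any of the 4 fits without a control or a shp63 ON array (adjusted p from 0.0932 to 0.181), and RPS25 passed as lower without shp63 ON replicate 1 (0.0433). The second probe set of RPS25 passed as lower (-0.40, SE 0.08, limma adjusted p = 0.0101), while that of RPS15 did not pass (-0.03). The other probe sets of RPS28 did not pass either (-0.10 and -0.37). At an unadjusted p under 0.05, 5 of the 8 head genes and 20.4% of all genes were lower. In 7 of the 8 head genes (87.5%) both shp63 ON arrays lay below both control arrays, and in 1 both lay above. Among the 60 ribosomal protein genes 88.3% lay below in this way, and among all genes 30.4%. RPS6, the small subunit protein phosphorylated by S6 kinase downstream of mTORC1, read 11.71 and 11.76 in shp63 ON, against 11.97 and 11.99 in control. It passed at -0.25 (SE 0.07, limma adjusted p = 0.0261), but not in any of the 4 fits that left out a control or a shp63 ON array (adjusted p from 0.0636 to 0.119).

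Genes whose proteins bind MDM2 and genes of an inherited anaemia were also lower in shp63 ON. Of the 11 measured genes whose proteins can bind MDM2, 8 passed as lower in shp63 ON and none as higher. The share that passed as lower was 61.7% among the 60 ribosomal protein genes and 16.5% among all genes. In all 11 both shp63 ON arrays lay below both control arrays, where 88.3% of the 60 ribosomal protein genes and 30.4% of all genes did. The lower count among them was 3 without control replicate 1, 3 without control replicate 2 and 4 without shp63 ON replicate 2. Of the 14 measured genes mutated in Diamond-Blackfan anaemia, a failure of red cell formation, 9 passed as lower (64.3%) and RPS28 as higher. That lower count was 3 without control replicate 1, 3 without control replicate 2 and 4 without shp63 ON replicate 2, fits in which 11.1%, 9.86% and 12.5% of all genes passed as lower. RPS19, the gene most often mutated in that disease, did not pass (-0.11, SE 0.07).

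The genes that passed as higher in shp63 ON were RPL19, RPS28 and RPL3L. RPL19, whose long helix bridges the subunits, read 10.52 and 10.58 in shp63 ON, 9.99 and 9.98 with Nutlin-3, and 10.33 and 10.30 in control. It rose by 0.24 in shp63 ON (SE 0.06, limma adjusted p = 0.0225), and the groups did not overlap. RPL19 did not pass as higher without control replicate 1 (0.0757), control replicate 2 (0.116), shp63 ON replicate 1 (0.0513) or shp63 ON replicate 2 (0.101). RPS28, of the small subunit head, read 14.05 and 14.08 in shp63 ON, 13.52 and 13.71 with Nutlin-3, and 13.70 and 13.85 in control on its brightest probe set. This rise of 0.29 (SE 0.08, adjusted p = 0.032) was not seen on its other probe sets, which changed by -0.10 and -0.37 and did not pass, and the mean of the 3 probe sets changed by -0.06. It also did not pass in any fit without a control or a shp63 ON array (0.0548 to 0.171). RPL3L, a relative of RPL3 made mainly in muscle, was dim, with 7.02 and 6.89 in shp63 ON, against 6.66 and 6.53 in control (0.36, SE 0.08, adjusted p = 0.00971). It did not pass without control replicate 2 (0.0703) or without shp63 ON replicate 1 (0.0587). The other dim tissue-restricted relatives, RPL10L and RPL39L, both best known from testis, did not pass (0.04 and -0.01). Without these 3 relatives, 37 of 57 genes passed as lower and 2 as higher.

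Nutlin-3 moved few ribosomal protein genes. Against control, 1 of the 60 genes passed as higher (RPS24) and 1 as lower (RPL19), where 9.64% of all genes tested passed as higher, 8.89% as lower and 18.5% in either direction (limma). The median log2 fold change of the 60 genes was 0.05, within a range of -0.33 to 0.33, and that of all genes was -0.00. The estimate was above 0 for 49 genes and below 0 for 11. Both Nutlin-3 arrays lay above both control arrays in 22 genes (36.7%, where 30.2% of all genes did) and below them in 4 (6.67%, where 30.3% of all genes did). At an unadjusted p under 0.05, 8 of the 60 genes were higher and 1 lower, where 16.3% of all genes were higher and 16.6% lower. After median centring of the arrays, 4 passed as higher and 1 as lower, where 11.8% of all genes passed as higher and 6.72% as lower.

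RPS24 changed by 0.33 with Nutlin-3 (SE 0.08, limma adjusted p = 0.031). It did not pass without control replicate 1 (0.181), control replicate 2 (0.0676), Nutlin-3 replicate 1 (0.121), shp63 ON replicate 1 (0.0517) or shp63 ON replicate 2 (0.0517). RPL19 changed by -0.33 (SE 0.06, adjusted p = 0.0103), a call lost without control replicate 1 (0.0798) or control replicate 2 (0.0537). None of the 11 genes that can bind MDM2 passed with Nutlin-3 in limma, 1 was higher at an unadjusted p under 0.05, and their median was 0.05. Of the 60 ribosomal protein genes 2 passed and 13.3% were higher at that unadjusted threshold. Over all genes 18.5% passed and 16.3% were higher unadjusted. RPL5 read 13.27 and 13.27 with Nutlin-3, against 13.27 and 13.25 in control, and RPL11 read 10.24 and 10.06 with Nutlin-3, against 9.97 and 10.10 in control. Targets of p53 responded in the same arrays: MDM2 rose by 1.30 (SE 0.14, adjusted p = 0.000718) and CDKN1A, which halts the cell cycle, by 1.59 (SE 0.06, adjusted p = 9.27e-06).

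**Figure D3:**
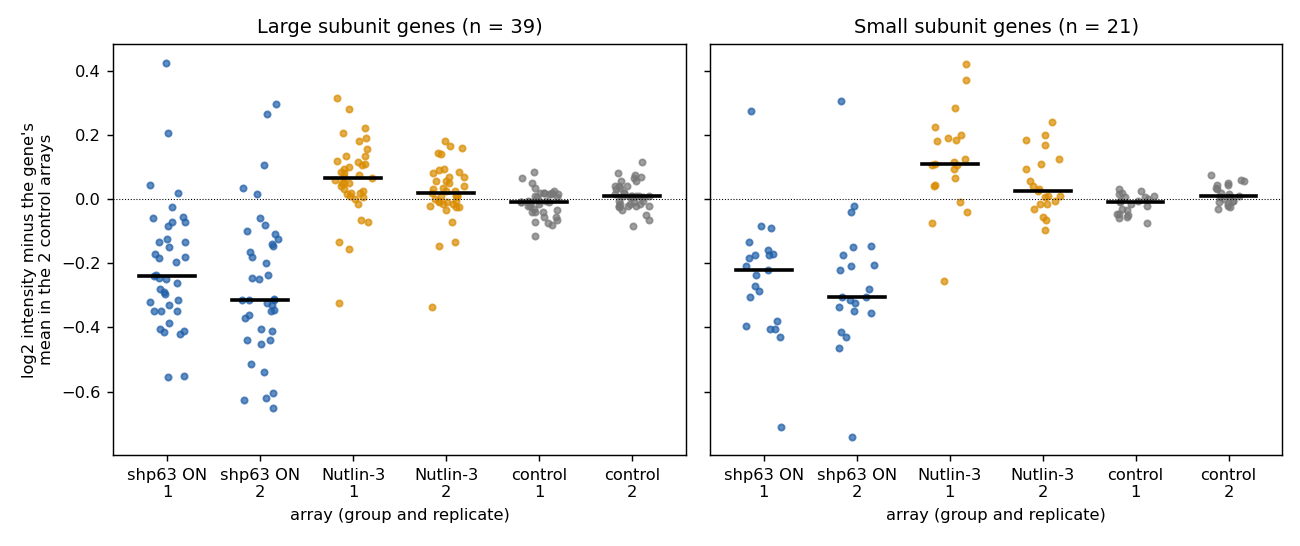
Log2 intensity of each ribosomal protein gene on each array, minus the mean of that gene in the 2 control arrays, for the large subunit (left) and the small subunit (right). Points are genes and the black line is their median. Both shp63 ON arrays lie mostly below 0, with medians of -0.24 and -0.31 for the large subunit and -0.23 and -0.30 for the small subunit, and the Nutlin-3 medians lie between 0.02 and 0.12.

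Set directly against Nutlin-3, shp63 ON was lower in 43 of the 60 genes and higher in 3, where 24.0% of all genes tested passed as lower, 27.5% as higher and 51.5% in either direction (limma). The median log2 difference was -0.33, against 0.03 for all genes. Both shp63 ON arrays lay below both Nutlin-3 arrays in 55 genes (91.7%, where 35.7% of all genes did). By brightest probe sets, RPS24 differed most, by -1.06 (SE 0.08, adjusted p = 7e-05). It was followed by RPL10 at -0.67 (SE 0.10), RPL23 at -0.65 (SE 0.07) and RPL32 at -0.62 (SE 0.08). The second probe set of RPS3A differed by -1.12 (SE 0.13) and that of RPS9 by 1.24 (SE 0.23). The 3 higher genes were again RPL19 (0.57, SE 0.06, adjusted p = 0.000312), RPL3L (0.51) and RPS28 (0.45). All comparisons reuse arrays, so the shared direction of these genes is not separate evidence. Every fit that left out 1 array gave 33 to 41 lower genes and 3 higher genes.

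The medians and shares of the subunits lay close together. In shp63 ON against control, 23 of 39 large subunit genes passed as lower (59.0%) and 2 as higher, with a median of -0.28. Over all genes, 16.5% passed as lower and 19.7% as higher. Without the dim relatives RPL3L, RPL10L and RPL39L, 63.9% of the large subunit genes passed as lower, with a median of -0.29. Of the 21 small subunit genes, 14 passed as lower (66.7%) and 1 as higher, with a median of -0.25. The middle 50% of the genes ran from -0.38 to -0.12 in the large subunit and from -0.36 to -0.17 in the small subunit. The fits without control replicate 1, control replicate 2 and shp63 ON replicate 2 gave 15, 11 and 14 lower genes of the large subunit and 7, 5 and 7 of the small subunit, and without shp63 ON replicate 1 the counts were 20 and 10. With Nutlin-3 the medians were 0.04 in the large and 0.06 in the small subunit. Between shp63 ON and Nutlin-3, 26 large subunit genes (66.7%) and 17 small subunit genes (81.0%) were lower, where 24.0% of all genes were. The medians were -0.31 and -0.34. Genes of a subunit are not replicates, so no test of large against small was made.

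Probe sets and brightness gave a view of the same falls with other probes. The 60 genes had 91 probe sets, and 20 genes had more than 1. Among the 31 probe sets that did not stand for their gene, the median change in shp63 ON against control was -0.31, and 26 were below 0. Of these 31, 18 passed as lower and 0 as higher. Over all genes, each by its brightest probe set, 16.5% passed as lower and 19.7% as higher. In 5 genes (RPL12, RPL13, RPL7, RPS28 and RPS9) the probe sets differed in sign. RPL12 changed by -0.31, -0.36 and -0.37 on its brighter probe sets and by 0.06 on its dimmest. RPL7 changed by -0.30 and -0.25 on its brighter probe sets and by 0.08 on its dimmest, and RPL13 by -0.26 on the brightest and by 0.07 and 0.18 on the others. RPS9 changed by -0.22 on the brightest and by 0.32 on a dim one. In Nutlin-3 against control the other 31 probe sets had a median of 0.07. Among them 3 passed as higher, dim ones of RPL7 (0.56), RPS3A (0.51) and RPL34 (0.25), where 9.64% of all genes did. The dim one of RPS9 passed as lower (-0.92), where 8.89% of all genes did. In 8 of the 20 genes with several probe sets the signs differed. In shp63 ON against control none of these probe sets of opposite sign passed in limma except the brightest of RPS28. RPL7 did not pass without control replicate 2 (0.0798) or shp63 ON replicate 2 (0.064), and RPL13 and RPS9 in none of the 4 fits without a control or a shp63 ON array (0.0643 to 0.0956 and 0.0544 to 0.185). Falls were found at every level of signal. In shp63 ON against control the median was -0.34 in the 20 genes with a mean log2 intensity under 10, -0.24 in the 18 genes between 10 and 12 and -0.22 in the 22 genes at 12 or over, where the medians of all other genes in these bands were 0.05, -0.05 and -0.01. Ribosomal protein genes have many near-identical pseudogenes, so a probe set may also read RNA of such copies, which was not tested.

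At the gene starts, 31 of the 49 genes with a RefSeq promoter entry had a run of at least 8 pyrimidines through the annotated start (63.3%), where 732 of 15842 protein-coding genes had one (4.62%). Among the genes printed above, RPS24, RPL26, RPL29, RPS23 and RPS6 have it, and RPL10A, RPL19, RPS28 and RPL10L do not. In RPL19, RPS28 and RPL10A a run of that length lies next to the annotated start, with its nearest base 1, 1 and 2 bases away, so that whether they count depends on where the annotation puts the start. In shp63 ON against control, 20 of the 31 genes with the run passed as lower and none as higher, with a median of -0.25. Of the 18 genes without it, 9 passed as lower and 2 as higher (RPL19 and RPS28), with a median of -0.22. If runs within 2 bases of the start also count, a rule chosen after the sequences were seen, 34 of the 49 genes have one (69.4%, where 9.0% of all such promoters do). Then 21 of the 34 passed as lower and 2 as higher, with a median of -0.25, and of the other 15 genes 8 passed as lower and 0 as higher, with a median of -0.26. In the 615 other measured genes with such a run, the median was -0.00 and 23.6% passed as lower, and in the 13716 other measured genes with a promoter entry the median was 0.03 and 17.9% passed as lower. The letters CCGGAAG, searched on both strands from 250 bases before to 50 bases after the start, were found in 17 of the 49 genes (34.7%) and in 14.2% of all such promoters. The letters CACGTG, searched in the same way, were found in RPL19 and RPS28 (4.08%), and in 8.88% of all such promoters. These matches describe the sequence only.

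Many small nucleolar RNAs (snoRNAs), which guide the chemical marking of ribosomal RNA, are cut from introns of ribosomal protein genes. Of the 60 genes, 20 hold at least 1 annotated snoRNA gene within their span, with the strand not considered. In shp63 ON against control, 16 of these 20 host genes passed as lower, with a median of -0.30. Of the 40 other genes 21 did, with a median of -0.22, where 16.5% of all genes passed as lower. Without control replicate 1, control replicate 2 and shp63 ON replicate 2 the counts were 10, 8 and 11 of the 20 hosts and 12, 8 and 10 of the 40 others. Of 41 snoRNA genes in these spans, 18 in 12 hosts were measured as genes of their own. Among them 10 passed as lower and 1 as higher (16.5% and 19.7% of all genes), with a median of -0.39.

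Some snoRNAs had larger log2 changes than their hosts. SNORD58A read 5.05 and 5.08 in shp63 ON, against 6.16 and 6.08 in control (-1.06, SE 0.13, limma adjusted p = 0.00114), while its host RPL17 changed by -0.38 (not passed without control replicate 2, adjusted p = 0.0511). SNORA3B, in RPL27A, read 6.81 and 6.87 in shp63 ON, against 7.78 and 7.97 in control (-1.04, SE 0.08, adjusted p = 0.00013), while RPL27A changed by -0.43. In RPL23A, which changed by -0.19, SNORD4A, SNORD4B and SNORD42A fell by 0.93, 0.94 and 0.91. These host values are from the brightest probe set, and the others changed by -0.31 in RPL23A and by -0.72 and -0.35 in RPL27A. SNORA3A, in the same host as SNORA3B, did not pass (0.05), and neither did the 3 snoRNAs measured in RPL3 (-0.18, -0.10 and -0.06). SNORA52, in RPLP2, passed as higher (0.18, adjusted p = 0.0454), but in none of the 6 fits without 1 array. The difference between a snoRNA and its host was not tested. With Nutlin-3, 4 of the 18 snoRNAs passed as higher and 0 as lower in limma (8 and 0 at an unadjusted p under 0.05), with a median of 0.19. Over all genes 9.64% passed as higher and 16.3% were higher at an unadjusted p under 0.05. That higher count was 0 without control replicate 1, 1 without control replicate 2 or Nutlin-3 replicate 1, and 2 without Nutlin-3 replicate 2.

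**Figure D4:**
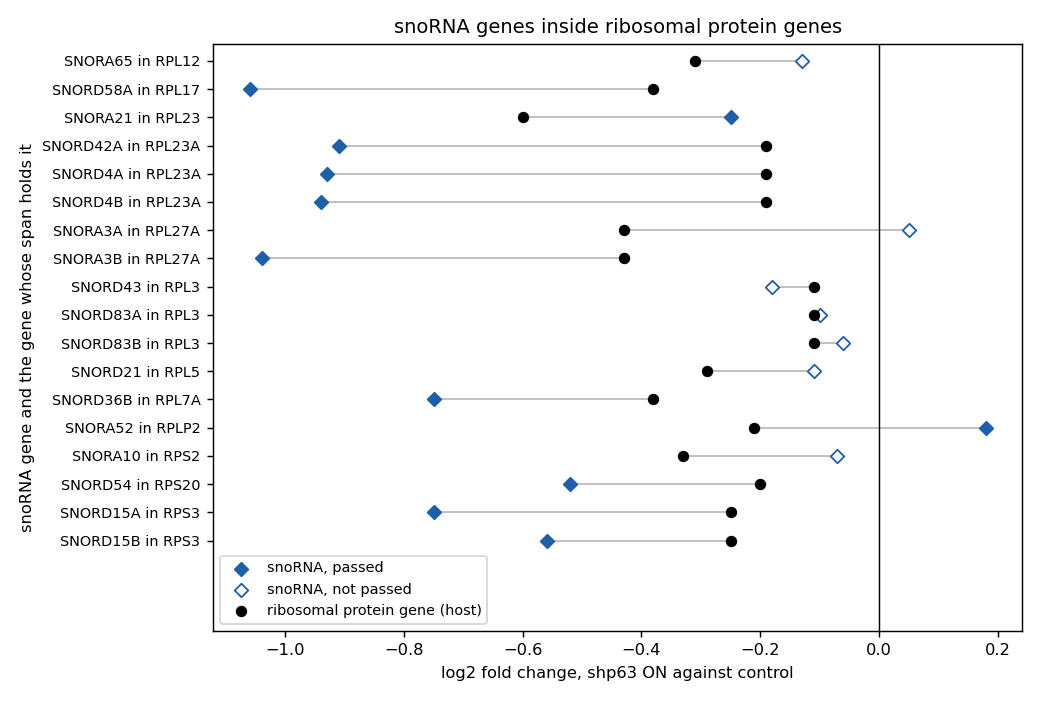
Log2 fold change in shp63 ON against control of 18 snoRNA genes (diamonds, filled where the adjusted p was under 0.05) and of the ribosomal protein gene whose span holds each (black points). Grey lines join each pair. SNORD58A (-1.06), SNORA3B (-1.04) and the snoRNAs of RPL23A lie well left of their hosts, and SNORA52 (0.18) lies to the right of 0.

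The machinery that builds ribosomes was lower in shp63 ON as well. RNA polymerase I and its factors, which transcribe ribosomal RNA, had 14 of 20 genes lower and none higher, with a median of -0.40, led by POLR1E (-1.17, SE 0.09, limma adjusted p = 0.000103). Among small subunit assembly factors 41 of 47 were lower (median -0.54), and among large subunit assembly factors 30 of 44 (median -0.44). WDR3, of the small subunit processome, read 7.14 and 7.05 in shp63 ON, against 8.06 and 8.20 in control. BRIX1 changed by -1.01 and BOP1, an organiser of large subunit RNA processing, by -0.91. Of 15 box H/ACA and nucleolar genes 10 were lower (median -0.50), among them NOLC1 (-1.20) and DKC1, the pseudouridine synthase of the box H/ACA particles (-1.13). At an unadjusted p under 0.05, 0 genes of these 4 lists were higher, where 26.5% of all genes were. The RNA polymerase I count was 9 without control replicate 1 or 2, and the other 3 counts stayed within 1.5 times of these values in every fit that left out 1 array.

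Translation factors and related families had medians closer to 0. Initiation factors had 21 of 36 lower and none higher in limma, with 1 higher at an unadjusted p under 0.05 (median -0.21), with ABCE1, which splits ribosomes for reuse, at -1.02 and EIF3E at -0.81. That count was 10 without control replicate 1, 11 without control replicate 2, 13 without shp63 ON replicate 1 and 11 without shp63 ON replicate 2. Elongation and release factors had 3 of 10 lower and EEF1A2 higher (median -0.13), and the lower count was 0 to 3 in the fits without 1 array. Of 18 other genes whose messenger RNAs are of the TOP class, 6 were lower and none higher, also at an unadjusted p under 0.05 (median -0.14), among them NPM1 (-0.70), while EEF1A1 (-0.12), TPT1 (-0.04) and PABPC1 (-0.05) did not pass. With the mean of all its probe sets TPT1 passed as lower (-0.53, adjusted p = 0.00148), and EEF1A1 passed as lower under 2 of the 15 alternatives (down to -0.21). Genes of the mitochondrial ribosome, a separate particle, had 21 of 73 lower and 4 higher (median -0.12). Without control replicate 2 those counts were 6 and 1, without shp63 ON replicate 2 they were 11 and 2, and without shp63 ON replicate 1 or control replicate 1 they were 13 and 2 or 14 and 3. With Nutlin-3, 5 of the 20 RNA polymerase I genes and 7 of the 47 small subunit assembly genes were higher and none lower, where 9.64% of all genes were higher. Large subunit assembly factors had 2 of 44 higher and 1 lower with Nutlin-3, and box H/ACA and nucleolar genes 2 of 15 higher and 1 lower. The Nutlin-3 counts of the RNA polymerase I and small subunit assembly genes were 1 and 2 without control replicate 1, 1 and 2 without control replicate 2, 1 and 4 without Nutlin-3 replicate 1, and 3 and 2 without Nutlin-3 replicate 2.

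**Figure D5:**
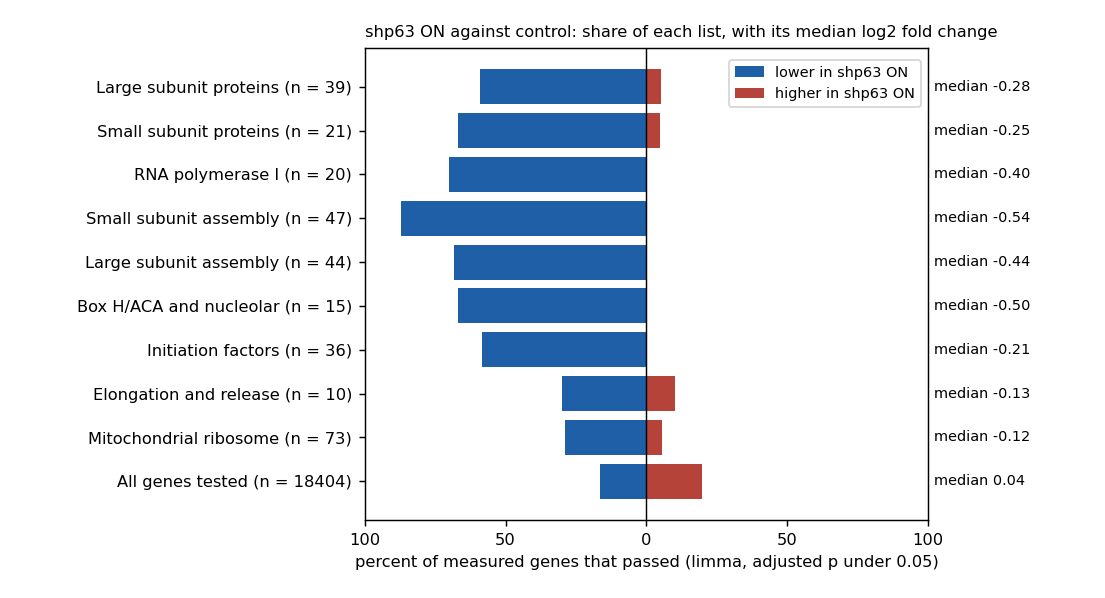
Share of the measured genes of each list that passed as lower (bars to the left) or higher (bars to the right) in shp63 ON against control, in percent, with the median log2 fold change of the list at the right. The large and small subunit genes had 59.0% and 66.7% lower, and all genes tested had 16.5% lower.

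MYC, a transcription factor known to drive ribosome production, read 9.30 and 9.37 in shp63 ON, 10.95 and 10.89 with Nutlin-3, and 10.85 and 10.89 in control. It fell in shp63 ON (-1.54, SE 0.06, limma adjusted p = 8.34e-06) and did not pass with Nutlin-3 (0.05). The mTOR kinase gene MTOR did not pass in shp63 ON (0.01), and EIF4EBP1, which restrains initiation when mTORC1 is off, fell (-0.54, SE 0.08, adjusted p = 0.00203). EIF4EBP1 also passed as lower with Nutlin-3 (-0.34, adjusted p = 0.0219), but not without control replicate 1 (0.0698), control replicate 2 (0.127) or Nutlin-3 replicate 1 (0.0912). In the whole list of 21 genes of mTORC1 and MYC control, 6 were lower and 1 higher in shp63 ON (median -0.02), and 2 were lower and 4 higher with Nutlin-3 (median 0.11). The single higher gene in shp63 ON, MYCN (0.39), did not pass in the 4 fits without a control or a shp63 ON array. None of the 21 genes passed as lower with Nutlin-3 in the limma fits without control replicate 1 or without control replicate 2. Proliferation genes were lower in both treated groups, all 14 in shp63 ON (median -1.59) and 13 of 14 with Nutlin-3 (median -1.11). MKI67, for example, read 7.46 and 7.31 in shp63 ON, 8.70 and 8.58 with Nutlin-3, and 9.52 and 9.70 in control. The part of MYC and of proliferation in the ribosomal protein values was not tested.

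RPS27L, a relative of RPS27 that p53 activates and that the rule left out, showed how far a close relative can part from the set. RPS27L read 7.36 and 7.33 in shp63 ON, 8.35 and 8.26 with Nutlin-3, and 7.11 and 7.18 in control. It rose by 1.16 with Nutlin-3 (SE 0.07, limma adjusted p = 3.6e-05) and by 0.20 in shp63 ON (SE 0.07, adjusted p = 0.0485), and the call in shp63 ON was lost in the 4 fits without a control or a shp63 ON array (0.105 to 0.206). RPS27 itself read 11.84 and 11.71 in shp63 ON, 12.14 and 12.01 with Nutlin-3, and 12.01 and 12.02 in control. It did not pass with Nutlin-3 (0.06, SE 0.08, adjusted p = 0.649) and passed in shp63 ON (-0.24, SE 0.08, adjusted p = 0.0437), but in none of the 4 fits without a control or a shp63 ON array (0.0547 to 0.197). RPL22L1 and RPL7L1, further relatives outside the rule, fell in shp63 ON by 0.61 and 0.58, and FAU, which encodes a small subunit protein fused to a ubiquitin-like one, did not pass (-0.17).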

How the data were processed

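RNA of 6 samples in 3 groups of 2 was measured on Affymetrix HuGene 1.0 ST arrays. The values deposited by the authors are log2 probe set intensities, a scale read from the values (2.94 to 14.88). Partek is named by the submitters' processing notes, with no version, and by the design text, which adds a one-way analysis of variance. How background was corrected, arrays normalized and probes summarised is not given in the sources used here. The number of arrays limits the precision, since arrays have no read depth.

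Of 32321 probe sets, 19158 name 1 gene, 1388 several and 11775 none. Those naming 1 gene gave 18404 genes, with the brightest probe set for the 637 genes with several. No filter on dim genes was applied, and 0 sample columns were left unused. With limma 3.58.1 (R 4.3.3), lmFit and eBayes were run on the 6 arrays together, with a mean for each group and 3 residual degrees of freedom, a step checked on simulated data. Tables and sequence searches used Python 3.11.15. P-values of genes were adjusted over all 18404 genes, and SE are limma's. Values of probe sets that do not stand for their gene come from a separate limma fit. It covered the 19158 probe sets that name 1 gene, with p-values adjusted over these. Replicate numbers were not used as a block. Alternatives were another normalization (quantile, cyclic loess, median centring), a filter on dim genes, the mean of all probe sets, the variance model, 4 arrays in place of 6, analysis of variance without moderation, the replicate block, and leaving out each array. Which arrays were left out is named beside many of the counts or calls that this changed, but not beside all. Counts of the marker lists in shp63 ON also changed in some of these fits. So did the Nutlin-3 counts of the large subunit assembly, box H/ACA and nucleolar, and proliferation genes.

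The ribosomal protein genes and all other lists were chosen with earlier results of these data known. Genes named with values per array are the 8 largest falls and 4 largest rises that passed in shp63 ON against control, those that passed with Nutlin-3, the 4 largest differences per direction between shp63 ON and Nutlin-3, members of the 5S particle, stalk, RPS6 and tissue-restricted groups, and genes whose probe sets differ in sign. Of each other list up to 3 genes per direction were taken. RPS7, RPS2, RPS13, RPS21, RPS23, RPL3, RPL8, RPL23A, RPL4, the head genes, RPS19, the snoRNAs, MTOR, MKI67, EEF1A1, TPT1, PABPC1 and EIF4EBP1 were named after their values were seen. Promoter sequences are from RefSeq.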

Additional observations from a re-analysis of the deposited data

How the results depend on the processing

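The medians of both subunits in shp63 ON stayed below 0 under the alternatives in which they were recomputed, while counts and some single genes changed. The ribosomal protein genes that passed against control were 17 in all, 16 lower and 1 higher, under the analysis of variance without moderation, and 16 to 40 in all, 16 to 37 lower and 0 to 3 higher, when 1 array was left out. With Nutlin-3 the count of 2 became 1 (0 higher) under the analysis of variance and with only the 4 arrays compared, 5 (4 higher) with centred arrays, 8 (7 higher) without the dimmer genes, 4 (3 higher) with the mean of all probe sets, 9 (8 higher) with trend and robust in eBayes, and 0 to 4, with 0 to 3 higher and 0 to 1 lower, when 1 array was left out. At an unadjusted p under 0.05 limma gave 8 higher and 1 lower, where 16.3% and 16.6% of all genes were. The share of all genes that passed as higher with Nutlin-3 also moved. It was 3.73% under the analysis of variance, 8.71% with only the 4 arrays compared and 11.8% with centred arrays. Without the dimmer genes it was 20.9%, with the mean of all probe sets 9.5%, and with trend and robust in eBayes 12.2%. In shp63 ON against control the analysis of variance passed 9.05% of all genes as lower and 7.27% as higher. The large subunit median against control was -0.245 with cyclic loess and -0.244 with quantile normalization (-0.312 to -0.241 without 1 array), and against Nutlin-3 -0.364 with centred arrays and -0.357 without the dimmer genes (-0.355 to -0.271 without 1 array). The small subunit median against Nutlin-3 was -0.389 with centred arrays, -0.284 with cyclic loess and -0.271 with quantile normalization (-0.399 to -0.278 without 1 array). Without 1 array it was -0.303 to -0.226 in shp63 ON against control and 0.024 to 0.116 in Nutlin-3 against control. With the mean of all probe sets the sign turned in shp63 ON against control for RPS28 (-0.06) and RPS9 (0.05), and in shp63 ON against Nutlin-3 for RPL13 (0.03), RPS15 (0.01) and RPS9 (0.41), by construction from probe sets of opposite sign, and RPL13 in shp63 ON against control came to -0.00. For the other values the cause was not tested. Of the 37 lower genes, 9 passed as lower under every alternative in which they were tested: RPL10A, RPL14, RPL23, RPL26, RPL27A, RPL37A, RPS23, RPS24 and RPS3A. The deviations of same-numbered arrays from their group means correlated at r = -0.06, -0.02 and 0.11. These values show no pairing by replicate number, but cannot establish that there was none. With the replicate block, 34 ribosomal protein genes passed as lower in shp63 ON against control, where 16.0% of all genes did. Signal over background was not given, so dim genes such as RPL39L and RPS29 carry no statement on whether they were expressed.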
